A study of Mus musculus with 2 samples.

Results

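The genes described here are 10 genes of the hypoxia-inducible factor (HIF) pathway in endothelial cells of the developing mouse retina. *Hif1a* and *Epas1* encode the oxygen-labile subunits HIF-1α and HIF-2α, and *Arnt* encodes their stable partner. *Vhl*, *Egln1* and *Egln3* encode the proteins that mark and remove the α subunits when oxygen is present. *Bnip3*, *Ankrd37*, *Ddit4* and *Vegfa* are known targets of the factors. The genes were chosen by name, as rows of the deposited counts whose identifier carries 1 of these symbols, and all 10 had a row in both libraries, of 19813 gene symbols that did.

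Endothelial cells came from retinal tissue of wild-type C57BL/6 mice at postnatal day 6 (P6) and P15, and the labels name no transgene and no treatment. Sorting kept cells that carry CD31, found on endothelium, and lack CD45, found on leukocytes, and each age gave 1 droplet library of the 10x Genomics kind. At P6 the retinal vessels are still growing, and at P15 arteries and veins have matured, and the study grouped the cells of both ages together into 9 populations, among them proliferating, sprouting, capillary, venous and arterial cells. How many animals gave each library was not found in the sources used here, and with 1 library per age the age and the library cannot be told apart.

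Cells use oxygen itself to control this pathway. With oxygen present, prolyl hydroxylases, the proteins of the Egln genes, modify the α subunits, the VHL ubiquitin ligase binds the modified protein, and it is degraded. When oxygen is short the α subunits persist, pair with ARNT, bind the core sequence RCGTG (R is A or G) in regulatory DNA and turn on genes for glycolysis, mitochondrial clearance, growth control and vessel growth. Most of the control of the α subunits is on the protein, so their mRNA, which is what was measured here, is not a measure of HIF activity.

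The P6 counts held 1984 barcodes and 13958124 unique molecular identifiers (UMIs, 1 for each captured mRNA), and the P15 counts held 2141 barcodes and 11589641 UMIs. After the study's exclusion criteria as read here, 1424 P6 cells with 7648189 UMIs and 1644 P15 cells with 7371443 UMIs remained, with medians of 4986 and 4215 UMIs per cell, and 7 barcodes occurred in both libraries. These are not exactly the study's cells, since 1399 of 1560 P6 cells and 409 of 438 P15 cells that carry its labels passed. All 7 endothelial markers examined had UMIs at both ages, and every remaining cell held at least 1 UMI of them. Levels are CPM, the UMIs of a gene divided by all UMIs of the cells named and multiplied by 1000000, and are not compared between genes. Their 95% intervals (exact Poisson for levels, conditional binomial for ratios, Clopper-Pearson for shares) cover counting error only, not the spread between animals. A ratio is called past the fold when it is at least 1.5 or at most 0.667 with at least 50 UMIs over both groups. No test across samples and no p-value was possible.

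Among the genes with enough UMIs for a call, the targets *Ankrd37* and *Ddit4* differed most between the ages. *Ankrd37*, which encodes an ankyrin repeat protein, stood at 63.4 CPM at P6 (57.9 to 69.3) and at 372.4 at P15 (358.6 to 386.6). That is a P15 to P6 ratio of 5.87 (5.33 to 6.48), and it ranked 82nd from the top of the 10972 genes tested. *Ddit4*, which encodes REDD1, a restraint on mTORC1 signalling, stood at 86.9 at P6 (80.5 to 93.8) and at 285.7 at P15 (273.6 to 298.2). Its ratio of 3.29 (3.01 to 3.59) ranked 236th. Both genes were higher at P15 by far more than the counting error.

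The promoters of both genes are shown because they carry the largest differences among the genes with a call, and that of *Bnip3* beside them as a target of the same pathway with too few UMIs for a call. Each stretch lies just before the RefSeq start site in GRCm38.p6, without the bases that GENCODE annotates as an exon of the gene, is printed 5′ to 3′ on the gene's strand, and has each ACGTG of either strand in capitals. They are *Ankrd37* at chr8:45999868-46000100, *Ddit4* at chr10:59951835-59952020 and *Bnip3* at chr7:138909520-138909756, all on the minus strand.
Ankrd37: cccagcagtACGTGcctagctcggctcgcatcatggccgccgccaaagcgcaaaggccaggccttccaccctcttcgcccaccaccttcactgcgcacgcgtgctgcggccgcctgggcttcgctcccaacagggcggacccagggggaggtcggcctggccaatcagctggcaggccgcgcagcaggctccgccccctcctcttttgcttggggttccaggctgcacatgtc
Ddit4: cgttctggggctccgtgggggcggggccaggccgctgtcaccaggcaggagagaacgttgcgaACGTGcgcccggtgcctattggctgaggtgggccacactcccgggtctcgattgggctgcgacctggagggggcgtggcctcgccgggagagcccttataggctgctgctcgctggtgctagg
Bnip3: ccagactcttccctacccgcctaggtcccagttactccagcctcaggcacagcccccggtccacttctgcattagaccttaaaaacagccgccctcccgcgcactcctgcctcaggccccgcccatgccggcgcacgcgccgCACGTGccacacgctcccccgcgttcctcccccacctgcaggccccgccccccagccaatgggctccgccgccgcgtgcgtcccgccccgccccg

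The capitals begin 241 bases before the start site in *Ankrd37*, 187 bases before it in *Ddit4* and 108 bases before it in *Bnip3*, where the match also reads CACGTG, the E-box bound by other factors. A further ACGTG of *Ankrd37* begins 6 bases before the start site, inside an annotated exon. The other core form, GCGTG, occurs at 1 place in the windows of *Ankrd37* and *Ddit4* and at 3 in that of *Bnip3*. Of the 10 genes, 9 had a RefSeq window, and ACGTG was found on either strand of the 250 bases before the start site in 7 of them, all but *Arnt* and *Vhl*. *Vegfa* holds it in 1 of its 2 windows, and that window (chr17:46025164-46025413) lies inside the annotated gene (chr17:46016993-46032369). Its other window, chr17:46032378-46032627, holds none. The only ACGTG of *Egln1* begins 68 bases before the start site, inside an annotated exon. The same search found ACGTG in 18.5% of 27025 gene symbols. A match describes these letters and is not evidence of binding.

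The other target genes were near the limit of detection in these cells. *Bnip3*, a receptor for the removal of mitochondria, had 5 UMIs at P6 and 40 at P15, a ratio of 8.30 with a wide interval of 3.28 to 26.9, and its 45 UMIs fell under the minimum for a call. *Vegfa*, the main vessel growth factor, had 5 UMIs at P6 and 4 at P15, or 0.654 and 0.543 CPM. A difference in *Vegfa* was not detectable at this depth. *Egln3*, a hydroxylase that is itself a target, had 28 UMIs at P6 and 48 at P15, from 3.66 to 6.51 CPM, and its ratio of 1.78 (1.09 to 2.94) was past the fold. Without the upper limit on genes per cell the ratio was 1.20, and the barcodes over that limit held 49 UMIs at P6 and 22 at P15.

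The mRNAs of both α subunits were also higher at P15, by smaller factors. *Epas1* stood at 170.6 CPM at P6 (161.5 to 180.1) and 281.8 at P15 (269.8 to 294.1), a ratio of 1.65 (1.54 to 1.77). *Hif1a* stood at 68.5 at P6 (62.8 to 74.6) and 102.6 at P15 (95.4 to 110.1). Its ratio of 1.497 (1.34 to 1.68) just missed the fold, and it was past it in labelled cells (1.65) and without the upper gene limit (1.66). The *Epas1* call depended on the denominator, and the ratio was 1.49 without mitochondrial, ribosomal protein and haemoglobin genes in the total. The intervals of both genes did not overlap between the ages.

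The partner and the oxygen sensing genes differed less. *Arnt* stood at 17.4 CPM at P6 and 21.4 at P15, and the interval of its ratio of 1.23 (0.972 to 1.56) held 1. *Vhl*, the substrate-binding subunit of the ligase, went from 15.8 to 23.2, a ratio of 1.47 (1.15 to 1.87). *Egln1*, the main sensor in most tissues, went from 13.5 to 18.7, a ratio of 1.39 (1.07 to 1.81). Neither was past the fold, although both intervals lay above 1.

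**Figure D1:**
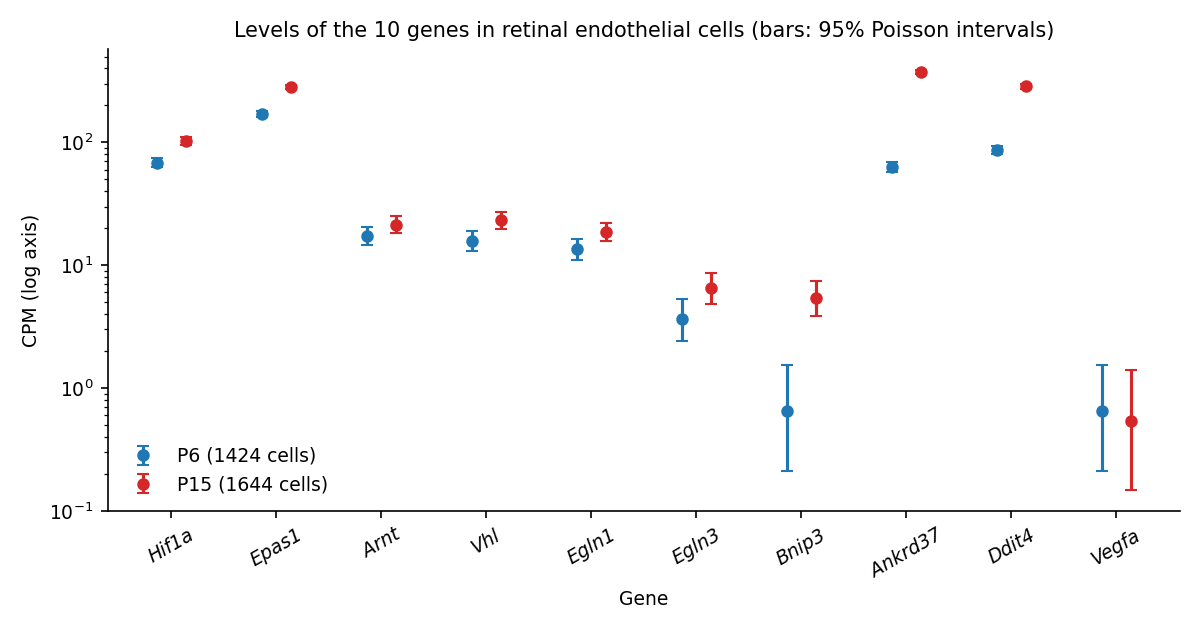
CPM (log axis) of each of the 10 genes in P6 cells (blue) and P15 cells (red) that passed the exclusion criteria, with 95% Poisson intervals as bars and 1 library per age. *Ankrd37* and *Ddit4* show the widest gaps between the ages among genes with ample counts, and the P6 and P15 intervals of *Arnt*, *Egln1*, *Egln3* and *Vegfa* overlap.

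In all, 8 of the 10 genes had enough UMIs for a call between the ages, and 4 of them (*Epas1*, *Egln3*, *Ankrd37* and *Ddit4*) were past the fold at P15, against 18.8% of all genes tested. Without *Egln3*, whose share of cells could not be told from background, the count was 3 of 7. None was past the fold the other way, where 11.8% of all genes were. Scaled by the median of gene ratios, 13.9% of all genes were higher and 15.3% lower, and no gene of the 10 was lower. The median log2 ratio was 0.65 over these 8 genes and 0.12 over all genes tested.

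The higher levels of both targets came with more cells that held them. With each cell thinned to 2000 UMIs, which left out 13 P6 cells and 172 P15 cells, *Ankrd37* was found in 11.3% of 1411 P6 cells (9.73 to 13.1) and 45.7% of 1472 P15 cells (43.2 to 48.3). *Ddit4* was found in 15.6% (13.7 to 17.6) and 39.1% (36.6 to 41.7). *Epas1* was found in 29.4% and 41.2%, and *Hif1a* in 12.4% and 17.4%. Without thinning the shares were 22.5% and 65.2% for *Ankrd37*, and 29.8% and 58.2% for *Ddit4*. After thinning, 6 of the P15 cells held 5 or more *Ankrd37* UMIs and 5 held as many of *Ddit4*. Thinning itself keeps such counts low, so they do not measure copies per cell. Without thinning, a P15 cell that passed held up to 15 *Ankrd37* UMIs and up to 16 of *Ddit4*.

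Free RNA also gives UMIs in cells that do not express a gene. Since these 10 genes are used by most cell types, no cell type was at hand that lacks them, and genes of other cells were taken as background. The photoreceptor gene *Sag* was found in 1.56% of thinned P6 cells and 2.79% of thinned P15 cells. The shares of *Egln3* (0.709% and 1.22%), *Bnip3* (0.142% and 0.815%) and *Vegfa* (0.283% and 0.136%) lay below it at both ages. These shares could not be told from background, and neither expression nor a difference between the ages is read from them. The thinned shares of *Arnt* (3.97% and 4.21%), *Vhl* (3.19% and 4.76%) and *Egln1* (2.41% and 3.40%) lay above that of *Sag* at both ages. Without thinning, the haemoglobin gene *Hba-a1* was found in 2.39% of P6 cells and 15.3% of P15 cells. The unthinned shares of *Arnt* (8.92% and 8.88%), *Vhl* (8.08% and 9.98%) and *Egln1* (7.09% and 7.60%) were above it at P6 and below it at P15, and no difference between the ages is read from them. Those of *Ankrd37*, *Ddit4*, *Epas1* and *Hif1a* lay above both background genes at both ages.

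Other RNA moved with age beside these genes. Genes that respond to tissue dissociation (*Fos*, *Jun*, *Junb*, *Egr1*, *Atf3*, *Hspa1a* and *Hspa1b*, all 7 found at both ages) summed to 440.9 CPM at P6 and 1915 at P15. Pericyte markers went from 10.1 (5 of 6 found, *Cspg4* at 0) to 265.8 (6 of 6), mostly *Rgs5*. Photoreceptor markers went from 14.5 to 63.2 with 5 of 5 found at both ages. Müller glia and astrocyte markers went from 368.7 (5 of 6, *Aqp4* at 0) to 1227 (6 of 6), mostly *Glul*, with *Rlbp1* from 1.31 to 63.6, and erythroid markers from 9.68 (2 of 4) to 67.2 (3 of 4). The *Ankrd37* ratio was 5.27 (4.13 to 6.74) and the *Ddit4* ratio 3.76 (2.97 to 4.75) in the 477 P6 and 207 P15 cells with no UMI of the dissociation list. In cells with no pericyte UMI the ratios were 5.90 and 3.21, and in cells with no photoreceptor UMI 5.74 and 3.36. In cells with no erythroid UMI they were 5.65 and 3.34, and in the 566 P6 and 253 P15 cells with no glial UMI 4.79 (3.97 to 5.79) and 3.93 (3.13 to 4.93). The *Epas1* ratio was 2.09, 1.66, 1.69 and 1.65 in the selections free of dissociation, pericyte, photoreceptor and erythroid UMIs. It was 1.40 (1.15 to 1.70), under the fold, in cells with no glial UMI. A UMI of the glial list was found in 60.3% of P6 and 84.6% of P15 cells that passed. Among labelled cells it was found in 92.6% of P6 Cap-Arterial, 92.5% of P6 Arterial and 100% of P15 Cap-Arterial cells. The selection with no glial UMI thus also left out most cells of these clusters, where the level of *Epas1* was high. *Egln3* had 13 UMIs left in cells free of the dissociation list and was then lower at P15. Cells with no dissociation UMI were shallower, with medians of 4402 UMIs at P6 and 2471 at P15. With no glial UMI the medians were 4534.5 and 2662, against 4986 and 4215 in all cells that passed. At this depth a cell without a UMI of a list may still express it. What these RNAs add to the ratios was not tested.

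Where counting did not use strand, reads of a gene on the opposite strand would be added to a gene, and strand use was not given in the sources used here. *Ankrd37* (chr8:45996902-46005707, minus strand) overlaps *Ufsp2* and *Lrp2bp* on the plus strand. *Ufsp2* had 423 UMIs at P6 and 455 at P15, and *Lrp2bp* 12 and 28. *Hif1a* overlaps the antisense gene *Gm15283*, with 5 and 21 UMIs. *Ddit4* (chr10:59949669-59951834, minus strand), *Vhl*, *Egln1*, *Egln3* and *Vegfa* overlap no annotated gene.

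A wider list of 57 hypoxia pathway genes holds the 10 genes. Of its 44 genes with enough UMIs, 20 were past the fold higher at P15 and 1 lower, against the same 18.8% and 11.8% of all genes, and the median log2 ratio was 0.57. Without the 10 genes, 16 of 36 were higher and 1 lower, with a median of 0.55. The list was drawn up with earlier results of these data known and is not independent of them.

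Among the secreted and surface targets, 5 of 6 tested were past the fold higher, against 18.8% of all genes. *Vegfa*, *Pgf* and *Car9* of this group had too few UMIs for a call, with ratios of 0.830, 3.32 and 0.371. *Edn1*, which encodes the vasoconstrictor endothelin, went from 28.5 to 162.9 CPM (ratio 5.72, 4.94 to 6.63), and *Adm*, the vasodilator adrenomedullin, from 86.6 to 464.8 (5.37, 4.94 to 5.84). *Angptl4*, an inhibitor of lipoprotein lipase, had a ratio of 2.19 and *Angpt2*, an antagonist ligand of the Tie2 receptor, had one of 1.74.

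Of the mitochondrial and stress targets, 6 of 7 tested genes were past the fold higher, against 18.8% of all genes. Beside *Ankrd37* and *Ddit4* these included *Mxi1*, a Myc antagonist (ratio 2.20), *Ndrg1*, a stress-responsive gene (1.94), and *Kdm3a*, a histone demethylase (1.83). Of the glucose targets 3 of 12 were past the fold, or 25%, near the 18.8% of all genes. *Pfkl*, the liver type phosphofructokinase, had a ratio of 2.38, *Pfkfb3*, which makes its activator fructose-2,6-bisphosphate, of 2.17, and *Slc2a1*, the glucose transporter GLUT1 of barrier endothelium, of 1.84. The other 9 glucose genes lay between 0.73 and 1.48.

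Among coregulators 2 of 3 were past the fold, against 18.8% of all genes, with *Cited2*, an inhibitor that competes for the coactivators CBP and p300, at 2.85 (2.37 to 3.44). Of the oxygen sensors 2 of 4 were, *Egln3* among them. All 5 genes of the VHL ligase lay between 0.91 and 1.47 and none was past the fold. The single gene lower at P15 was *Loxl2*, a matrix cross-linking enzyme, at 0.586 (0.421 to 0.809), a matrix target named after its value was seen.

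**Figure D2:**
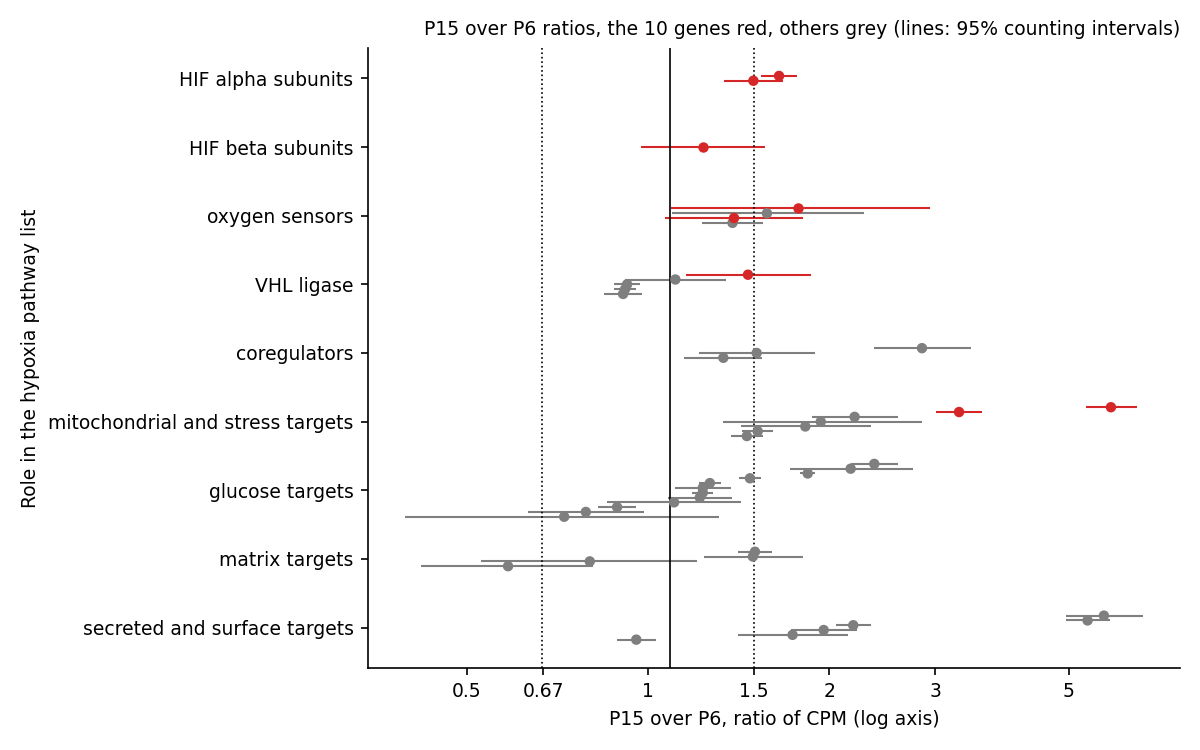
P15 over P6 ratio of CPM (log axis) of the 44 pathway genes with at least 50 UMIs, in rows by role, with 95% counting intervals, the described genes in red and the others in grey. The dotted lines mark 0.667 and 1.5, the solid line marks the median of all genes at 1.09, and the secreted and the stress targets lie furthest to the right.

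The study assigned cells to 9 populations, and the copy of its labels used here covers 1560 P6 cells and the first 438 P15 cells. Each was compared with the other labelled cells of its library. The populations were made from the expression of these same cells, so the comparisons are descriptions and their intervals are not independent evidence. Over the 9 P6 clusters, 7 of the genes had enough UMIs, giving 63 comparisons. Of these 8 were past the fold higher, against 12% of all genes and clusters, and 11 lower, against 17.7%. Both counts lay near these shares of all genes. The intervals of all 8 higher and of 6 lower ratios excluded 1, and no like share over all genes is given for that count. Over the 6 P15 clusters with at least 20 labelled cells, 4 genes gave 24 comparisons, with 1 higher (background 9.77%) and 6 lower (16.8%).

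Clusters differed in how many genes of any kind were past the fold. Primitive cells had 0 of 7 genes higher (5.65% of all genes) and 3 lower (43.1%) at P6, and 0 of 4 higher (10.7%) and 4 lower (36.2%) at P15. Low levels were thus common in these cells for genes in general. Proliferative cells at P6 had 0 higher (10.3%) and 2 lower (13.6%). Tip cells had 1 higher (7.49%) and 1 lower (11.6%) at P6, and 0 higher (9.34%) and 2 of 4 lower (15.2%) at P15.

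Cap-Arterial cells had 3 of 7 genes higher (16.4%) and 1 lower (14.3%) at P6, and 1 of 4 higher (11.2%) and 0 lower (11.9%) at P15. Arterial cells had 2 higher (24.4%) and 2 lower (24.8%) at P6, and Capillary cells had 2 higher (23.0%) and 1 lower (12.3%). None of the remaining clusters had a gene of the 10 past the fold higher. Venous cells at P6 had 1 lower (backgrounds 13.6% higher and 21% lower). Stalk (3.89% and 10.5%) and Cap-Venous cells (3.25% and 7.96%) had 0 in either direction at P6. At P15 the Stalk (5.28% and 9.5%), Cap-Venous (3.43% and 6.09%) and Capillary cells (18.7% and 21.6%) had 0 in either direction as well.

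*Epas1* was highest at the arterial end at P6. Its level was 435.2 CPM in 40 Arterial cells (348.1 to 537.5), 301.4 in Cap-Arterial, 208.5 in Capillary, 168.7 in Venous, 168.3 in Cap-Venous, 137.4 in Stalk, 129.6 in Proliferative, 127.8 in Tip and 86.0 in Primitive cells. Neighbours in this order differed beyond counting error between Arterial and Cap-Arterial, Cap-Arterial and Capillary, Cap-Venous and Stalk, and Tip and Primitive, and not elsewhere. Against the other labelled cells the ratio was 2.76 (2.19 to 3.43) in Arterial, 2.003 (1.74 to 2.29) in Cap-Arterial and 0.5001 (0.395 to 0.626) in Primitive cells. In P15 cells the ratio was 1.79 (1.46 to 2.19) in Cap-Arterial, 0.555 in Tip and 0.632 in Primitive cells. At P15 Cap-Arterial cells, at 422.8, had the highest level of the 6 clusters, though not beyond counting error of Capillary cells (1.28, 0.873 to 1.91). The 11 labelled P15 Arterial cells, under the minimum of 20 cells, stood at 713.1 (496.7 to 991.7, from 35 UMIs).

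*Ddit4* had a like order at P6. It stood at 192.6 CPM in Cap-Arterial (ratio 2.58, 2.16 to 3.07) and 172.1 in Arterial cells (2.07, 1.42 to 2.92), which did not differ beyond counting error. Tip cells at 54.5 (0.613), Primitive at 45.7 (0.512) and Proliferative cells at 39.4 (0.417, 0.319 to 0.537) were at the low end, and neighbours among these did not differ either. At P15 the levels of Cap-Arterial (327.0), Capillary (312.1), Cap-Venous (293.3) and Stalk cells (283.4) could not be told apart. Tip (179.5) and Primitive cells (153.3) remained low, at ratios of 0.629 and 0.550. Over clusters, the log2 levels of *Epas1* and *Ddit4* had a Pearson r of 0.89 at P6 (9 clusters) and 0.88 at P15 (6 clusters), given as a description of clusters that share a library.

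*Ankrd37* had another order. At P6 it was highest in Tip cells, the leading cells of sprouts, at 102.8 CPM (84.8 to 123.4, ratio 1.74, 1.41 to 2.14). It stood at 39.4 in Proliferative cells (0.570) and at 20.2 in Arterial cells, from 4 UMIs (0.312, 0.0847 to 0.803). The other 6 clusters lay from 56.3 to 78.9, and of neighbours in the order only Stalk and Proliferative cells differed beyond counting error (1.43, 1.02 to 2.01). At P15 Tip (468.0) and Cap-Venous cells (455.7) did not differ, and Primitive cells at 242.1 were the lowest cluster, though not beyond counting error of the next, with a ratio of 0.590 (0.396 to 0.849). Its r with *Epas1* over clusters was -0.44 at P6 and -0.10 at P15.

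*Hif1a* was highest in Capillary and lowest in Primitive cells at both ages, among clusters of at least 20 cells. At P6 it stood at 99.5 CPM in Capillary cells (ratio 1.60, 1.18 to 2.13) and at 45.7 in Primitive cells, and the highest level over the lowest was 2.18 (1.43 to 3.34). At P15 the order ran from 151.3 in Capillary cells to 32.3 in Primitive cells, the latter from 4 UMIs (ratio 0.292, 0.0788 to 0.758), and highest over lowest was 4.69 (1.51 to 19.3). No neighbours in either order differed beyond counting error. The counts of the other genes by cluster were small. *Egln1* was past the fold in P6 Capillary cells (2.16, 1.17 to 3.71, from 15 UMIs) and *Arnt* in P6 Cap-Arterial cells (1.79, 1.10 to 2.81, from 23 UMIs). *Egln3* had 8 of its 15 UMIs in P15 Tip cells. *Vegfa* had 0 UMIs in all 438 labelled P15 cells, which allows a level of up to 1.40 CPM, and 5 in the labelled P6 cells.

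**Figure D3:**
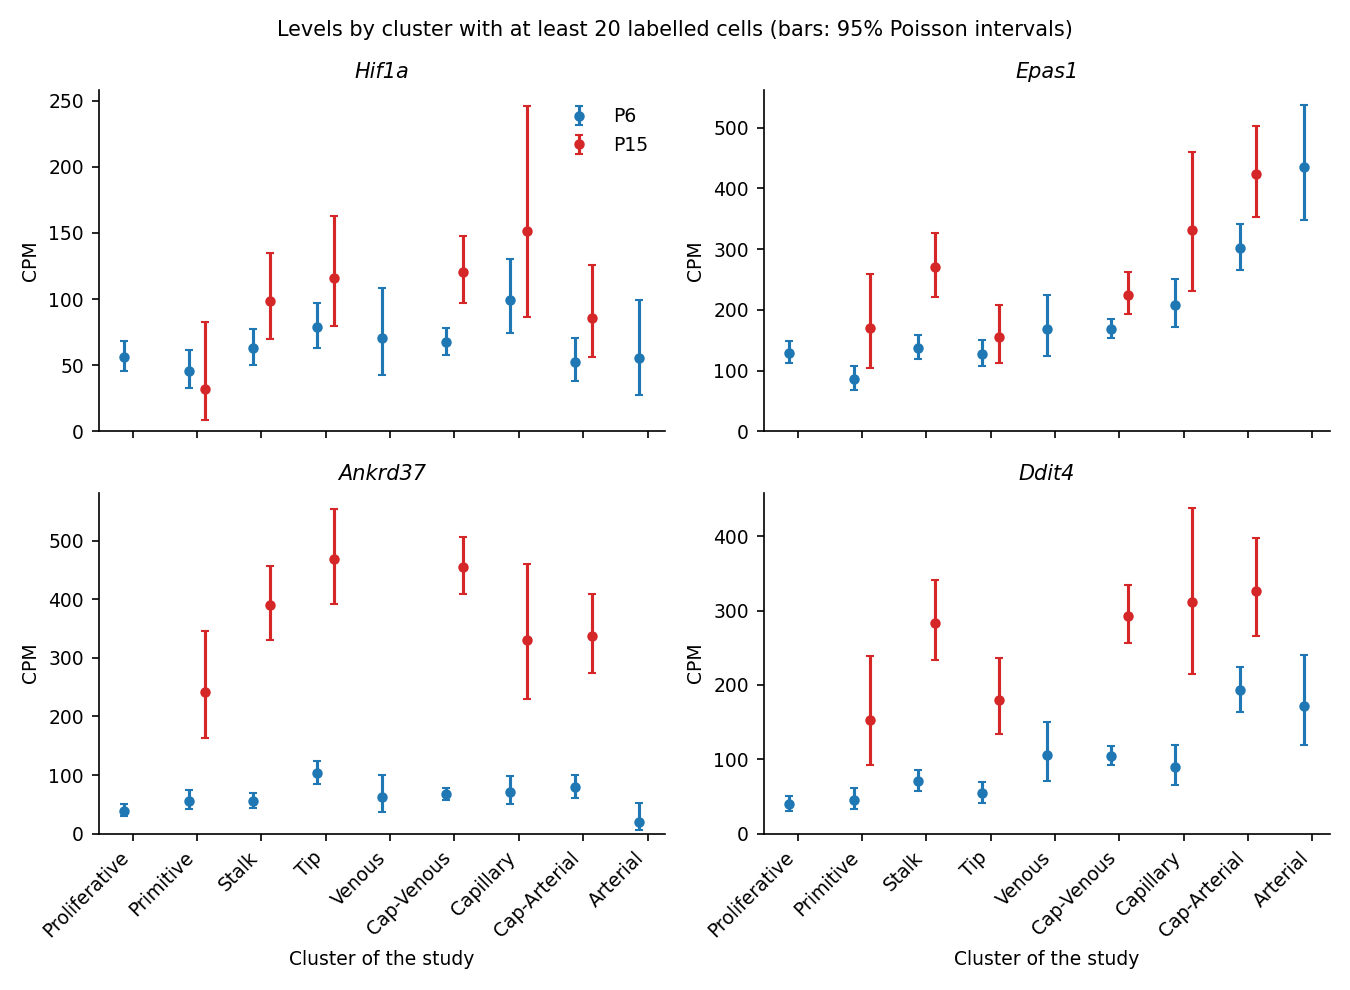
CPM (linear axes from 0) of *Hif1a*, *Epas1*, *Ankrd37* and *Ddit4* in each cluster with at least 20 labelled cells, at P6 (blue) and P15 (red), with 95% Poisson intervals. At P6 *Epas1* and *Ddit4* are highest in the clusters at the arterial end, the P6 level of *Ankrd37* is highest in Tip cells, and P15 levels of *Ankrd37* lie above the P6 level in all 6 clusters measured at both ages.

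Other RNA also differed between clusters. The dissociation list was highest in Arterial cells at both ages (1650 CPM at P6 and 3565 at P15, the latter from 11 cells) and lowest in Primitive cells (131.6 and 403.5), and its part in the cluster order of *Epas1* and *Ddit4* was not tested. Glial markers summed to 1592 CPM in P6 Cap-Arterial and 1564 in Arterial cells, nearly all of it *Glul*, while *Aqp4*, *Gfap*, *Slc1a3* and *Pdgfra* were at 0 in both. Median depth ranged from 3204 UMIs per cell in Capillary to 7955 in Proliferative cells at P6, and from 2269 in Capillary to 5853 in Tip cells at P15 among the 6 clusters. In the labelled P15 Primitive cells photoreceptor markers reached 435.8 CPM, against 45.8 to 70.8 in the other 5 clusters.

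At P6, Tip and Arterial cells differed in which pathway genes were high. In P6 Tip cells 9 of 41 pathway genes were past the fold higher (7.49% of all genes) and 3 lower (11.6%). *Angpt2* had a ratio of 11.4, *Adm* of 3.83, *Loxl2* of 3.08 and *Apln*, the peptide apelin, of 2.13, and *Pfkfb3*, *Pfkp*, *Ankrd37* and *Hk1* were also among the 9. In P6 Arterial cells 7 genes were higher (24.4%) and 12 lower (24.8%). *Edn1* had a ratio of 5.92 and *Cited2* of 2.46 there, beside *Epas1* and *Ddit4*, while *Adm*, with 1 UMI, stood at 0.0521 (0.00132 to 0.291) and *Apln*, with 3 UMIs, at 0.0726 (0.0150 to 0.213). *Adm*, *Angpt2*, *Apln*, *Loxl2* and *Ankrd37* were past the fold higher in P6 Tip and lower in P6 Arterial cells. *Edn1* and *Ddit4* were the reverse, each against the other labelled cells. Low secreted and surface targets were not particular to Arterial cells, with 5 of 6 lower there and 4 of 6 lower in P6 Cap-Arterial cells. Of the whole list, P6 Cap-Arterial cells had 7 of 41 genes higher (16.4%) and 11 lower (14.3%). P15 Tip cells had 7 of 33 higher (9.34%) and 9 lower (15.2%).

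Since the mix of clusters differed between the ages, the ages were also compared within the 6 clusters with at least 20 labelled cells at both. *Ankrd37* was past the fold higher at P15 in 6 of 6, from 4.27 (3.10 to 5.91) in Cap-Arterial to 6.93 (5.25 to 9.20) in Stalk cells. *Ddit4* was past it in 6 of 6, from 1.70 (1.31 to 2.19) in Cap-Arterial to 4.02 (3.04 to 5.32) in Stalk cells. *Epas1* was past it in 3 of 6 (Primitive, Stalk and Capillary), with the interval above 1 in 5 of 6 and the lowest ratio in Tip cells (1.21, 0.844 to 1.71). *Hif1a* was past it in 4 of 5 clusters with enough UMIs, with the interval above 1 in 2.

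By cluster, the genes past the fold higher were 3 of 3 tested in Primitive cells (21.6% of all genes), 4 of 4 in Stalk (20.2%), 2 of 4 in Tip (16.4%), 3 of 7 in Cap-Venous (17.6%), 4 of 4 in Capillary (16.2%) and 3 of 4 in Cap-Arterial cells (14.8%). None was past the fold lower in these 6 clusters, where 23.2%, 14.8%, 13.7%, 12.7%, 21.1% and 12.7% of all genes were. Where labels of the other P15 cells were predicted from their neighbours, *Ankrd37* was past the fold in 7 of 7 clusters and *Ddit4* in 8 of 8. Predicted labels were right for 82.0% of held-out P15 cells.

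**Figure D4:**
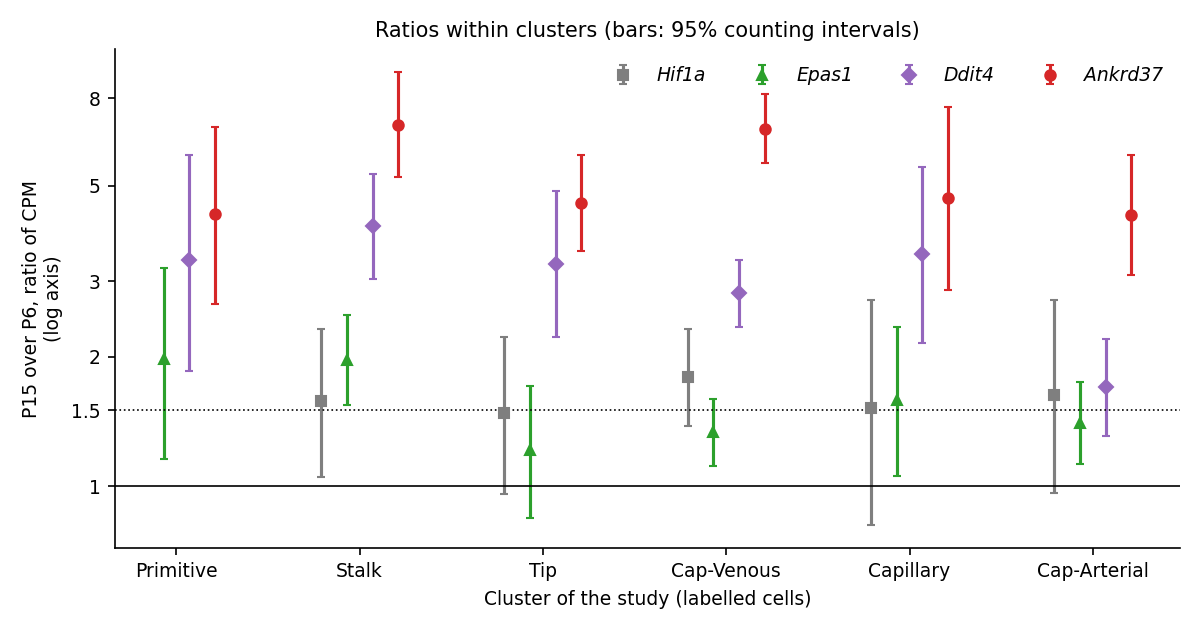
P15 over P6 ratio of CPM (log axis) within each of 6 clusters for *Hif1a* (grey squares), *Epas1* (green triangles), *Ddit4* (purple diamonds) and *Ankrd37* (red circles), with 95% counting intervals. The solid line marks 1 and the dotted line 1.5, and *Ankrd37* has the highest ratio of the 4 genes in every cluster while *Ddit4* is closest to *Epas1* in Cap-Arterial cells.

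The summed level of the 5 inducible genes (*Bnip3*, *Ankrd37*, *Ddit4*, *Vegfa* and *Egln3*) was 155.3 CPM at P6 (146.6 to 164.4) and 670.6 at P15 (652.0 to 689.5), a ratio of 4.32 (4.05 to 4.60). *Ankrd37* and *Ddit4* made 96.8% of the sum at P6 and 98.1% at P15. At P6 the sum ran from 84.2 in Proliferative to 273.9 in Cap-Arterial cells.

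*Ankrd37* and *Ddit4* were found together about as often as the product of their shares gives. In thinned P6 cells both were found in 25 cells, where the product of the shares gives 24.9, and in thinned P15 cells in 268, where it gives 263.3. *Ddit4* was found in 39.8% of P15 cells with *Ankrd37* and in 38.5% of those without it. Cell by cell the counts are sparse, and a weak relation between *Ankrd37* and *Ddit4* could be missed in them. *Ankrd37* and *Fos*, a gene of the dissociation list, were found together in 257 thinned P15 cells, where the product gives 226.8. In thinned P6 cells the count was 15 against 12.8. For *Ddit4* and *Fos* the counts were 216 against 194.1 at P15 and 15 against 17.6 at P6. The reason for these pairings was not tested.

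Genes whose P6 cluster order was most like that of each α subunit or target were taken from 5871 genes by Pearson r of log2(CPM + 1) over the 9 clusters, with the r over the 6 P15 clusters beside it. For *Epas1* these were *Slco1a4* (0.99 at P6, 0.87 at P15), *Adamts1* (0.98, 0.70) and *App* (0.98, 0.85). For *Ddit4* they were *Gstz1* (0.97, 0.08), *Elovl7* (0.97, 0.11) and *Tsc22d3* (0.97, 0.82). For *Ankrd37* they were *Jam3* (0.96, 0.26), *Strn4* (0.95, 0.54) and *Mogat2* (0.94, 0.80), and for *Hif1a* *Arhgap29* (0.95, 0.68), *Rhbdf1* (0.95, 0.69) and *Nid1* (0.95, 0.78). These genes were picked as the highest of many over 9 clusters of 1 library, and at P15 the r of *Gstz1*, *Elovl7* and *Jam3* was low.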

How the data were processed

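The values the authors deposited are raw UMI counts, 1 row per gene and 1 column per cell, with no scaling. The submitters' processing notes name Seurat 3.0 and mm10, and the aligner, annotation and strand use are not given in the sources used here. Identifiers were matched to symbols. Cells were kept by the study's exclusion criteria, taken as 200 to 3500 genes, mitochondrial UMIs of 5% or less, and none of the transcripts Hbb-bt, Cd63 and Neurod1. Doublets were treated only through the upper gene limit, no doublet caller was run, and 9 P6 and 12 P15 cells held both Xist and Y-linked UMIs. Cluster labels are the study's own. The labels of 1235 other P15 cells were predicted from 15 neighbours on 13 principal components, leaving out the pathway list.

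UMIs were summed over the cells of a group and divided by all their UMIs. Intervals are at 95%, and a count of 0 was bounded with 3 counts. The steps were tested on simulated counts that held counting error only, with no spread between cells or animals. There 1.75% of unchanged genes were past the fold between the ages and 9.43% in P6 Tip cells against the others. The software was Python 3.11.15, with scipy 1.17.1 and numpy 2.4.6 for the intervals, pandas 2.3.3, scikit-learn 1.9.0 and matplotlib 3.10.9. The 10 genes and the lists were chosen with earlier results of these data known. Named beside the 10 genes were the pathway genes furthest past the fold, at most 12 in a comparison, and for each gene with at least 200 UMIs in labelled P6 cells the 3 genes most like it over clusters. Some genes are counted in the lists but not reported here by name. Coordinates are from GENCODE M21 and sequences from RefSeq. Alternatives covered the cells, depth, scaling, weighting, cluster mix, count filter and labels. Those with cells free of the dissociation, pericyte, photoreceptor, glial or erythroid list were added after the data were seen.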

Additional observations from a re-analysis of the deposited data

Results flagged for a closer look

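Barcodes left out of the comparisons because they held UMIs of *Neurod1*, a gene of retinal neurons and photoreceptors, or *Cd63* carried several of the 10 genes at levels above those of the cells that passed, by at least 1.5-fold with an interval above 1. In the 98 P6 barcodes with *Neurod1*, *Hif1a* stood at 241.9 CPM, 3.53 times (2.99 to 4.15) the level of the cells that passed. *Bnip3* was 44.3 times higher there (16.6 to 148.0), from 25 of the library's 34 UMIs, and *Vegfa* 30.1 times higher (10.7 to 104.3), from 17 of 26 UMIs. *Epas1* was lower in them, at 49.8 against 170.6. In the 220 P6 barcodes with *Cd63* the ratios were 2.08 for *Hif1a*, 3.64 for *Egln3*, 19.7 for *Bnip3* and 15.9 for *Vegfa*. At P15 the 17 barcodes with *Neurod1* gave 3.98 for *Hif1a* and the 193 with *Cd63* gave 3.14 for *Egln3*. These barcodes overlap, and what they hold beside the marker that excluded them was not tested.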

How the results depend on the processing

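*Ankrd37* kept a P15 to P6 ratio between 4.79 and 6.46 and *Ddit4* between 2.85 and 3.93 under every alternative run. The count of the 10 genes past the fold higher was 3 to 6, and none was lower. Over the same settings 13% to 27.8% of all genes tested were higher and 10.7% to 19.2% lower, each highest with no count filter. *Egln3* turned to 0.322 in cells free of the dissociation list, from 13 UMIs. Of the pathway list, 15 to 24 genes were higher, and the 1 lower gene became 5 with every barcode, 2 with labelled cells, with median gene ratios and without mitochondrial, ribosomal and haemoglobin genes, 3 without the upper gene limit and 4 with no count filter. With no filter the P6 cluster counts were 17 higher and 26 lower and the P15 counts 8 and 18. The P15 count of 1 higher became 2 when thinned, averaged over cells or scaled by median ratios, and predicted labels gave 7 higher and 10 lower. No share of all genes is given for these cluster settings, so their counts are not read against a background. *Epas1* was under the fold at 1.49 without mitochondrial, ribosomal and haemoglobin genes and at 1.40 in cells with no glial UMI. The summed ratio was 3.24 without *Ankrd37* and 5.63 without *Ddit4*. Scaling by median ratios moved the median of all genes from 0.12 to -0.00 and calls to 13.9% higher and 15.3% lower, and leaving out the mitochondrial, ribosomal and haemoglobin genes gave 13% and 16.2%. No paired analysis was possible because each age has 1 library and the labels give no replicate numbers. *Bnip3*, *Egln3* and *Vegfa* are limited by depth, and the cause of these shifts was not tested.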
